A study of Mus musculus with 6 samples.

Results

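The unfolded protein response and the ATF4 stress response were examined in cultured myoepithelial cells of the mouse lacrimal gland, through 37 genes listed by their known roles. A gene was measured where a probe set carries its symbol and no other, and the probe set with the highest mean over the 6 arrays stood for it. This gave 36 of the 37 genes, among 22180 genes measured in the same way. Pdia4 had no such probe set. The 36 genes comprise 12 chaperones and folding enzymes of the endoplasmic reticulum (ER), 4 genes of ER-associated degradation, 4 genes of the stress sensors and XBP1, 9 transcription factors and effectors around ATF4, and 7 genes of amino acid supply and the folate cycle. The rule itself uses no difference between the groups, but the list was drawn up with earlier results of these data known.

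The cells came from exorbital lacrimal glands of female mice and were profiled on 6 Affymetrix Mouse Gene 2.0 ST arrays. Of these, 3 arrays held cells of TSP1 null mice, which lack thrombospondin-1, and 3 held cells of wild-type C57BL/6J mice. The sources used here do not give the strain that carries the null allele, the age of the mice or the number of animals per array. All cultures had no treatment and grew for about 2 to 3 weeks in RPMI medium with serum, glutamine, pyruvate and a supplement that the labels write as NEEA mixture. The series compares the groups as a dry eye disease model against health. The labels call the samples biological replicates and do not say whether each had a separate culture or mouse. The p-values therefore reflect only how these arrays vary, which may be technical.

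The ER is where secreted and membrane proteins fold, and unfolded proteins there engage 3 sensors. ATF6 is cut to a transcription factor, IRE1 (Ern1) splices the messenger of Xbp1 so that it encodes another, and PERK (Eif2ak3) phosphorylates the translation factor eIF2. The first pair mainly raise chaperones and the machinery that returns misfolded proteins for degradation, often through a promoter sequence named the ER stress element. Phosphorylated eIF2 lowers general translation and favours that of ATF4. Lack of amino acids, haem or intact mitochondria reaches ATF4 through other eIF2 kinases, and ATF4 acts on genes for amino acid supply and on stress effectors. Gland cells carry a large secretory load, and matrix-producing cells in culture do so too.

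Promoter sequences were searched for exact matches to these elements. RefSeq windows on GRCm38.p6, from 250 bases before to 50 after an annotated start, matched 33 of the 37 listed genes. The ER stress element was searched on both strands as CCAAT and CCACG with any 9 bases between them. It was present in 7 of the 33 genes (21.2%), against 0.119% of all 32851 windows. Here and below a gene was counted where any of its windows matched, so shares of genes and of windows have unlike units. The 32851 windows belong to 27025 symbols, and no share over all genes was computed. The 7 were Hspa5, Hsp90b1, Pdia6, Canx, Dnajc3, Creld2 and Syvn1, of which 6 are among the 11 chaperones matched. None of the 15 matched genes of ATF4 and amino acid supply held it. The following stretches are shown because they carry the element of the ER arm, on the gene's own strand, with the fixed letters of each match in capitals. They lie at chr2:34772009-34772059 (plus strand), chr10:86705524-86705665 (minus), chr12:17266475-17266525 (plus), chr15:88819504-88819554 (plus) and chr19:6046516-6046566 (plus).
Hspa5: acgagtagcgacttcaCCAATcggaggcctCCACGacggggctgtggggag
Hsp90b1: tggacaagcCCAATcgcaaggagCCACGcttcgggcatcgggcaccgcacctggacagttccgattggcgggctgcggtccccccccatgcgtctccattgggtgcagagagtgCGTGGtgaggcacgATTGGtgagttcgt
Pdia6: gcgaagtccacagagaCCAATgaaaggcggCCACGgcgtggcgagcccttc
Creld2: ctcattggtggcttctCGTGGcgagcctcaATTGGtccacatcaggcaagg
Syvn1: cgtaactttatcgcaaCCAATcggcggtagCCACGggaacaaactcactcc

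Hsp90b1 held 2 matches, and its second and that of Creld2 lie on the opposite strand. The compact form of the element, ATTGG and CCACG with 1 base between them, was found in Dnajb11 and Herpud1 (0.0365% of all windows). The element bound by ATF4 with C/EBP partners was searched as TGATGCAA on both strands and was found in Atf3, Chac1 and Herpud1, or 9.09% of the matched genes against 0.895% of all windows. With any base at its sixth position (TGATGNAA, which contains the former), Asns and Trib3 were added, Trib3 with a match after its start, against 3.97% of all windows. The stretches below show the 3 genes, with the matches in capitals, at chr8:94386301-94386403 (plus strand), chr1:191183416-191183463 (minus) and chr2:119351029-119351076 (plus).
Herpud1: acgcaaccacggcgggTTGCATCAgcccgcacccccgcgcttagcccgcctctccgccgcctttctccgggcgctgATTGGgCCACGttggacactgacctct
Atf3: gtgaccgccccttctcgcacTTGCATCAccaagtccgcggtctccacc
Chac1: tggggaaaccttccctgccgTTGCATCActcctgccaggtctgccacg

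Herpud1, an ER membrane protein of the degradation complex, held a match to the ATF4 element that began 112 bases before its start and a compact ER stress element that began 52 bases before it. A match describes the letters of the reference strand and not a bound site. The lack of a match covers only the exact letters searched, within these windows.

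**Figure D1:**
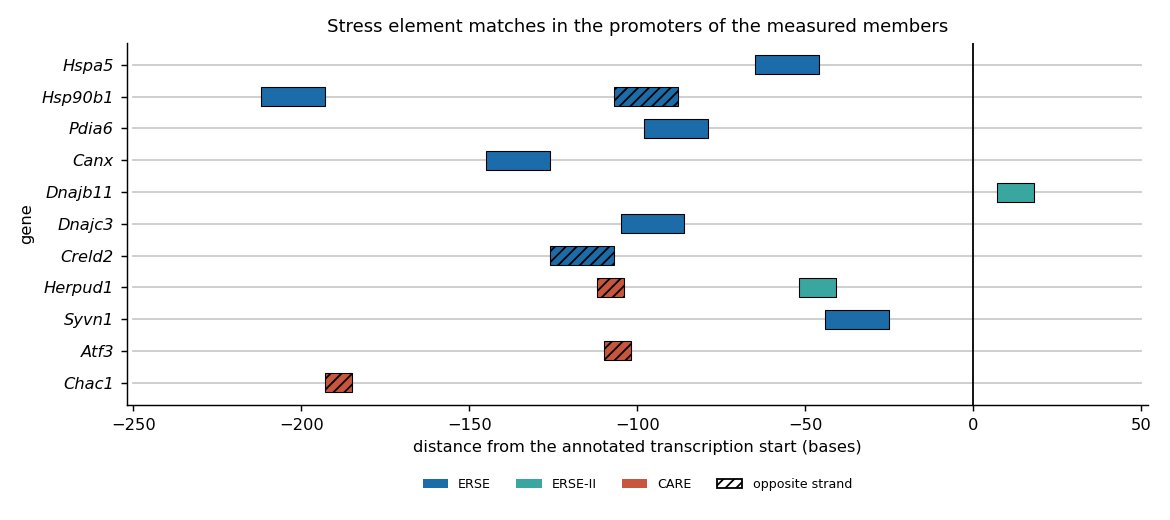
Matches to the ER stress element (ERSE), its compact form (ERSE-II) and the ATF4 element (CARE, as TGATGCAA) in the 11 measured members that hold any, by distance from the annotated start in bases; hatched boxes lie on the opposite strand. The ERSE and ERSE-II matches belong to chaperones and degradation genes, and the CARE matches to Atf3, Chac1 and Herpud1.

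Most members had a slightly higher mean signal in TSP1 null cultures, and the 3 largest differences were those of Sesn2, Ppp1r15a and Trib3, effectors of the ATF4 axis. Signals are log2 values, so a difference of 1 is 2-fold. The median difference of the 36 genes, null minus wild type, was 0.19, against 0.02 over all 22180 genes, with 30 positive and 6 negative (over all genes 55.1% were positive). With the mean of 16 macrophage markers as a covariate, 23 were positive and 13 negative. No member passed limma's adjusted p of 0.05, and neither did any other gene (0% of 22180), so no member is said to have changed. At an unadjusted p under 0.05 stood 7 members, or 19.4%, against 10.6% of all genes. Of the 7, Sesn2, Trib3, Ppp1r15a, Cebpb, Hyou1 and Sel1l were higher in the null group (6.28% of all genes were) and Atf3 was lower (4.27% of all genes were). Every null array lay above every wild-type array for 9 members, against 10.1% of all genes, and below for 0, against 5.75%. With each array centred on its median the 6 higher and 1 lower became 10 and 0, against 8.26% and 3.19% of all genes. Atf3 was no longer among them.

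These counts depended on single arrays. Without the second null array 12 members stood at an unadjusted p under 0.05, against 12.3% of all genes in that fit. Without null array 3 there were 2, Trib3 and Sesn2, against 6.7% of all genes, and without null array 1 there were 3, those and Sel1l, against 6.75%. With the macrophage covariate 1 was left, Sesn2, against 5.94%. In these last 3 fits the members' share was near or below that of all genes. No member passed the adjusted threshold in these fits.

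**Figure D2:**
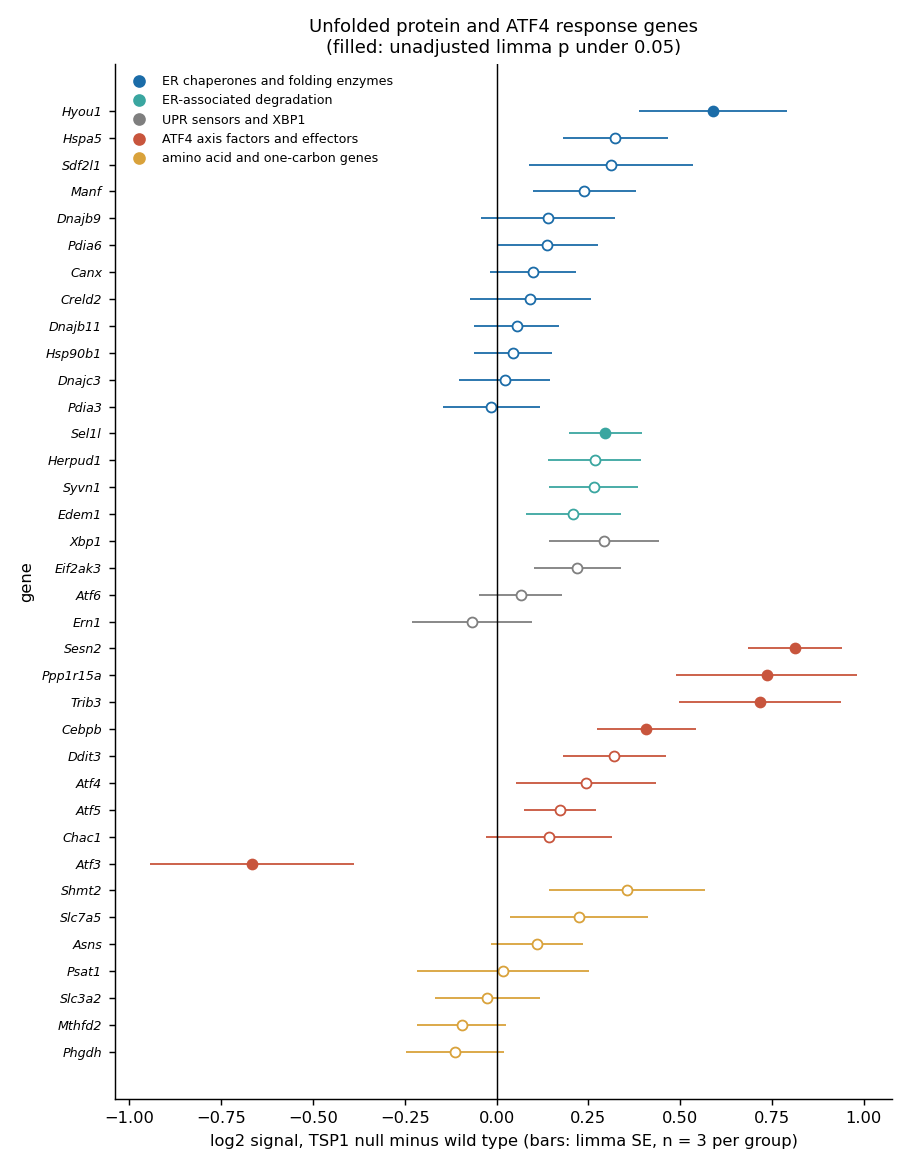
Difference in log2 signal, TSP1 null minus wild type, for the 36 members in 5 groups, with limma's SE (n = 3 per group); filled points have an unadjusted p under 0.05. Sesn2, Ppp1r15a and Trib3 have the largest positive differences (0.81, 0.74 and 0.72), and Atf3 lies alone at -0.67.

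The sensors and Xbp1 had differences from -0.07 to 0.29. Xbp1 had log2 signals of 10.86, 10.64 and 11.04 on the null arrays and 10.35, 10.64 and 10.68 on the wild-type arrays. The groups overlapped, with the first wild-type array lowest, and the difference was 0.29 (SE 0.15, limma adjusted p = 0.542), or 0.19 without that array. The probe set gives a single signal, so spliced and unspliced Xbp1 were not told apart. Eif2ak3, the PERK kinase, measured 7.88, 8.15 and 7.92 against 7.68, 7.81 and 7.80, a difference of 0.22 (SE 0.12) in which the groups did not overlap, or 0.14 without the second null array. Atf6 (0.07, SE 0.11) and Ern1 (-0.07, SE 0.16) lay close to 0, with 95% intervals of -0.20 to 0.33 and -0.45 to 0.31.

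Most ER chaperones had small positive differences, with groups that overlapped. The 12 measured chaperones and folding enzymes had a median difference of 0.12, 11 positive and 1 negative (55.1% of all genes were positive). Of them 1, Hyou1, stood at an unadjusted p under 0.05, against 10.6% of all genes. With the macrophage covariate 5 were positive and 7 negative (Hsp90b1, Pdia3, Pdia6, Canx, Dnajb9, Dnajb11 and Dnajc3), and Hspa5 had 0.12. Hspa5, which encodes BiP, the main ER chaperone of the HSP70 family, had signals of 10.93, 10.61 and 11.09 on the null arrays and 10.47, 10.61 and 10.57 on the wild-type arrays. The second null array lay at the level of the wild-type arrays, and the difference was 0.32 (SE 0.14, 1.25-fold, adjusted p = 0.482). Hyou1, an ER protein that exchanges the nucleotide of BiP, measured 10.60, 10.14 and 10.45 against 9.40, 9.99 and 10.03. Its groups did not overlap, the first wild-type array was far below the other two, and the difference of 0.59 (SE 0.20, 1.51-fold, adjusted p = 0.391) was 0.39 without that array.

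Other cofactors of BiP gave smaller values. Sdf2l1, which works with BiP and its J proteins, read 8.82, 8.38 and 8.46 on the null and 7.76, 8.53 and 8.44 on the wild-type arrays, so its difference of 0.31 (SE 0.22) came to 0.07 without the first wild-type array. Manf, a secreted ER stress protein, had 0.24 (SE 0.14), and 0.38 without the second null array. The J proteins Dnajb9, Dnajb11 and Dnajc3 had 0.14 (SE 0.18), 0.06 (SE 0.12) and 0.02 (SE 0.12). Creld2, a stress-induced ER protein, had 0.09 (SE 0.16).

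The lectin chaperone, the HSP90 of the ER and the disulfide isomerases had differences from -0.01 to 0.14. Hsp90b1, which encodes GRP94, measured 13.06, 13.07 and 13.16 on the null arrays and 13.15, 12.96 and 13.05 on the wild-type arrays. The 95% interval of its difference ran from -0.20 to 0.29. Canx, the membrane lectin calnexin, had 0.10 (interval -0.17 to 0.37). Pdia3 and Pdia6, which form and rearrange disulfide bonds, had -0.01 (interval -0.32 to 0.29) and 0.14 (interval -0.18 to 0.46). These intervals bound the differences and do not show that the genes were equal.

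The 7 genes with an ER stress element spanned differences from 0.02 for Dnajc3 to 0.32 for Hspa5. None of them stood at an unadjusted p under 0.05, against 10.6% of all genes, and 7 genes are too few to tell these shares apart. With each array centred on its median, Hspa5 and Syvn1 stood there, against 11.5% of all genes in that fit. Hyou1 and Manf had no entry in the promoter table.

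Genes of ER-associated degradation, which pull misfolded proteins back to the cytosol, had similar differences. All 4 had positive differences between 0.21 and 0.30 (55.1% of all genes were positive). The first wild-type array was the lowest of its group for all 4, against 39.7% of all genes. The second null array was the lowest of its group for 3 of them, against 36.8%. Sel1l, the scaffold of the ubiquitin ligase complex, measured 10.82, 10.93 and 10.91 on the null arrays and 10.57, 10.62 and 10.59 on the wild-type arrays. The groups were well apart with little spread, at 10.89 ± 0.06 against 10.59 ± 0.03 (SD, n = 3), and the difference was 0.30 (SE 0.10, 1.23-fold, adjusted p = 0.391). Syvn1, the ligase HRD1 of the same complex, measured 8.54, 8.30 and 8.35 against 7.998, 8.25 and 8.16, without overlap (0.26, SE 0.12). Herpud1 had 0.27 (SE 0.13). Edem1, which recognises trimmed glycans, had 0.21 (SE 0.13), which was 0.10 without the first wild-type array, and its other probe set, with signals between 4.65 and 4.90, had 0.09. Relative to its average over the 6 arrays, the mean of the 4 genes was 0.20, 0.07 and 0.12 in the null group and -0.25, -0.07 and -0.07 in the wild-type group.

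**Figure D3:**
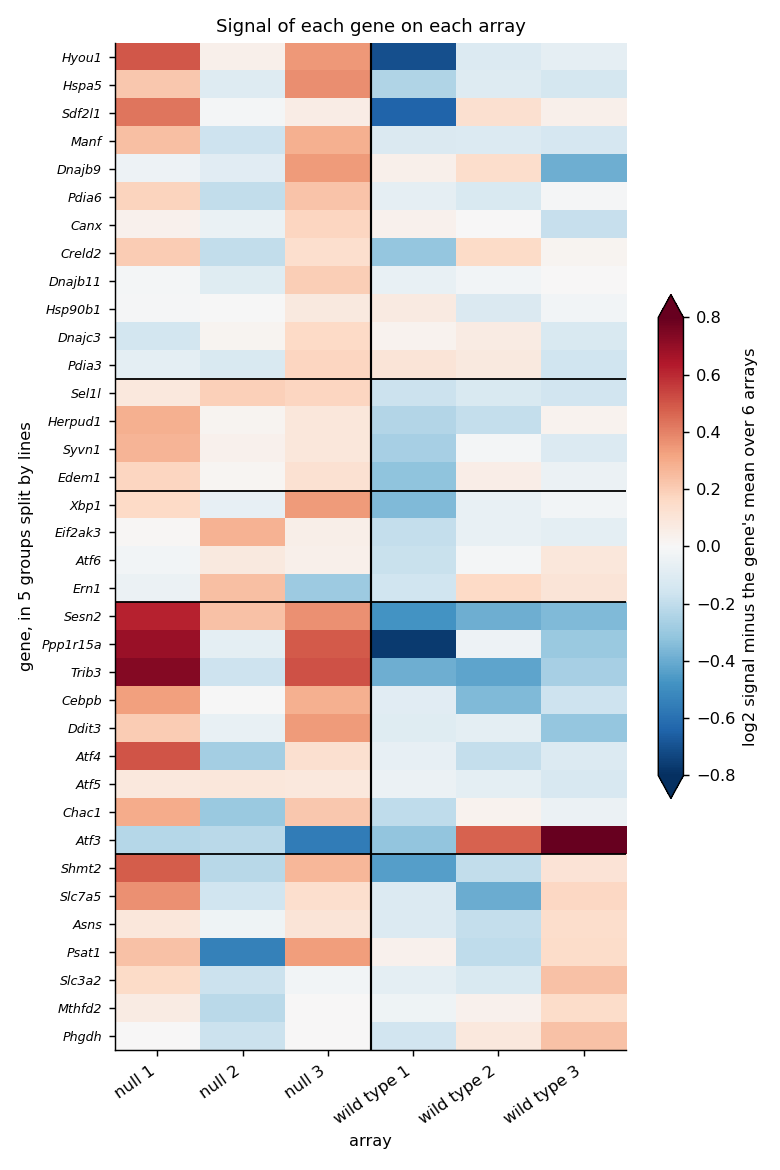
Log2 signal of each member on each array minus the gene's mean over the 6 arrays, with genes in the order and groups of the plot of differences (red higher, blue lower; colours saturate at 0.8 either way). The second null array is paler or bluer than the other null arrays for most members. Atf3 alone of the ATF4 axis genes has a lower mean in the null group, with its highest signals on wild-type arrays 2 and 3.

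Effectors of the ATF4 axis held the largest differences. Of these 9 genes 8 had positive differences and 1 negative, with a median of 0.32 (55.1% of all genes were positive). At an unadjusted p under 0.05 stood 5 of them, against 10.6% of all genes. Sesn2, a leucine sensor that restrains mTORC1 and is induced by several stresses, measured 9.39, 9.01 and 9.14 on the null arrays and 8.30, 8.38 and 8.42 on the wild-type arrays. Its groups were far apart, at 9.18 ± 0.19 against 8.37 ± 0.06 (SD, n = 3), and the difference was 0.81 (SE 0.13, 1.76-fold). The adjusted p was 0.194 by limma, and over 15 other settings the difference ran from 0.71 to 0.90 and the adjusted p from 0.0877 to 0.819. Trib3, a pseudokinase that dampens ATF4 and CHOP, measured 8.75, 7.85 and 8.52 against 7.63, 7.59 and 7.75. The second null array lay just above the wild-type arrays, and the difference was 0.72 (SE 0.22, 1.64-fold, adjusted p = 0.365).

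Ppp1r15a encodes GADD34, the subunit that directs a phosphatase to eIF2 and so ends the translation block. It measured 8.07, 7.30 and 7.87 on the null arrays and 6.62, 7.34 and 7.08 on the wild-type arrays. The second null array was inside the wild-type range, and the difference of 0.74 (SE 0.25, adjusted p = 0.388) came to 0.54 without the first wild-type array. Cebpb, a partner of ATF4 on DNA, measured 8.85, 8.51 and 8.80 against 8.42, 8.16 and 8.35, without overlap (0.41, SE 0.13, 1.33-fold). Ddit3, which encodes CHOP, the factor tied to cell death under lasting ER stress, measured 9.67, 9.40 and 9.81 against 9.37, 9.39 and 9.16. These groups did not overlap either, though the second null array exceeded the highest wild-type array only narrowly, and the difference was 0.32 (SE 0.14, adjusted p = 0.476).

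The transcription factors ATF4 and ATF5 differed less than these effectors. Atf4 measured 11.26, 10.48 and 10.88 on the null arrays and 10.69, 10.56 and 10.65 on the wild-type arrays. Its null arrays spanned the wild-type ones, with a difference of 0.24 (SE 0.19) that was 0.05 without the first null array and 0.44 without the second. ATF4 is set largely by translation, which arrays do not measure. Atf5, a relative under similar translational control, measured 10.76, 10.77 and 10.77 against 10.63, 10.60 and 10.55, a difference of 0.17 (SE 0.10) without overlap. Chac1, an enzyme that degrades glutathione, measured 8.09, 7.50 and 8.004 against 7.59, 7.82 and 7.75. Its second null array was the lowest of all 6, and the difference was 0.14 (SE 0.17).

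Atf3, a stress-induced repressor and a target of ATF4, had a lower mean in the null group. It measured 8.003, 8.02 and 7.67 on the null arrays and 7.91, 8.70 and 9.07 on the wild-type arrays. The first wild-type array lay among the null arrays, so the groups overlapped, and the difference of -0.67 (SE 0.28, 1.59-fold lower, adjusted p = 0.464) was -0.99 without that array. The mean of 16 macrophage markers was 9.51, 10.33 and 7.77 on the null arrays and 10.15, 10.81 and 10.97 on the wild-type arrays. With that mean as a covariate the Atf3 difference was -0.29. The cause of the difference was not tested.

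**Figure D4:**
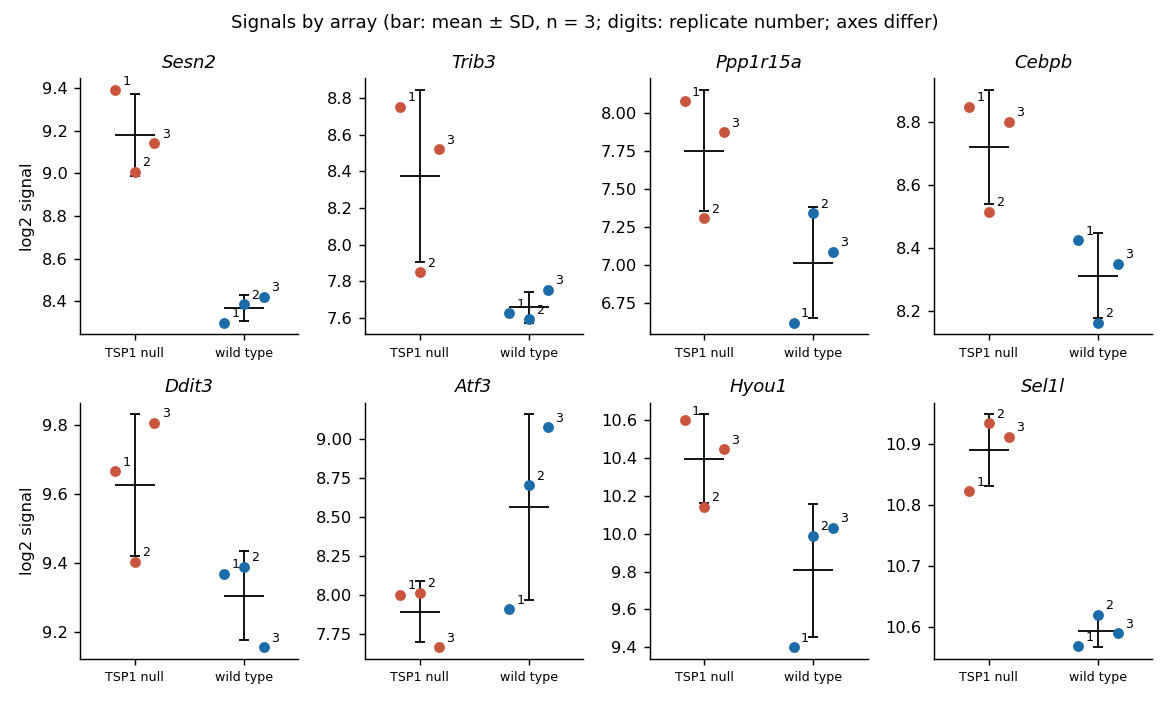
Log2 signals of 8 members on each array (points, numbered by replicate) with the mean ± SD of each group (n = 3). Sesn2 and Sel1l separate the groups by more than their spread, Ppp1r15a and Atf3 overlap, and the second null array is the lowest of its group for Sesn2, Trib3, Ppp1r15a, Cebpb, Ddit3 and Hyou1.

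Genes of amino acid supply, classical ATF4 targets, had differences of both signs. None of the 7 stood at an unadjusted p under 0.05, against 10.6% of all genes. The median difference was 0.02, and 4 were positive and 3 negative (55.1% of all genes were positive). Asns, asparagine synthetase, measured 10.80, 10.67 and 10.81 on the null arrays and 10.59, 10.51 and 10.85 on the wild-type arrays. Its groups overlapped, and the difference was 0.11 (SE 0.12, 95% interval -0.18 to 0.40). Phgdh and Psat1, the first steps of serine synthesis, had -0.11 (SE 0.13) and 0.02 (SE 0.23). Psat1 read 9.03, 8.25 and 9.13 against 8.83, 8.60 and 8.94, so the second null array was the lowest of the 6.

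In the mitochondrial folate cycle, Shmt2 had the largest difference of this group. It measured 10.26, 9.55 and 10.03 on the null arrays and 9.33, 9.57 and 9.87 on the wild-type arrays, an overlapping pair with a difference of 0.35 (SE 0.21). That difference was 0.20 without the first null array and 0.55 without the second. Mthfd2, the next enzyme, had -0.10 (SE 0.12). The heavy and light chains of a neutral amino acid exchanger, Slc3a2 and Slc7a5, had -0.02 (SE 0.14) and 0.23 (SE 0.19). For Slc7a5 it ran from 0.08 without the second wild-type array to 0.37 without wild-type array 3.

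The chaperone arm and the ATF4 arm had similar mean differences. The mean of the 12 chaperones differed by 0.17 (SE 0.10, n = 3 per group) and that of the 16 genes of the ATF4 axis and amino acid supply by 0.21 (SE 0.15). The chaperone mean minus the ATF4 and amino acid mean was 1.09, 1.31 and 1.30 on the null arrays and 1.30, 1.38 and 1.13 on the wild-type arrays. These values overlap throughout, and their difference was -0.04 (SE 0.10). The level of such a gap also holds the probes of each list, so only its change between arrays can be read.

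Within the ATF4 arm, the mean of the 9 axis genes minus that of the 7 amino acid genes was -0.98, -1.01 and -1.05 on the null arrays and -1.29, -1.12 and -1.40 on the wild-type arrays. The groups did not overlap, and the difference was 0.25 (SE 0.09). The axis mean alone differed by 0.32 (SE 0.14) and the amino acid mean by 0.07 (SE 0.16). No p is given for these means, since the members were grouped with earlier results of these data known.

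The arrays within a group were uneven. For 28 of the 36 members (77.8%) the second null array was the lowest of the null group, against 36.8% of all genes, and this held for all 7 amino acid genes and for 10 of the 12 chaperones. The first wild-type array was the lowest of its group for 20 members (55.6%), against 39.7% of all genes. Relative to their average over the 6 arrays, the ATF4 axis genes were at 0.36, -0.08 and 0.21 in the null group and -0.27, -0.12 and -0.09 in the wild-type group. The amino acid genes were at 0.20, -0.22 and 0.12 against -0.13, -0.14 and 0.17.

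Both the hypoxia and the macrophage lists varied over the same arrays. A list of 10 hypoxia and glycolysis genes was at 0.82, 0.01 and 0.73 in the null group and -0.34, -0.65 and -0.56 in the wild-type group. Its lowest null array was also the second, for 10 of 10 genes. A list of 16 macrophage markers had levels of 9.51, 10.33 and 7.77 on the null arrays and 10.15, 10.81 and 10.97 on the wild-type arrays, highest among the null arrays on the second. The part of oxygen supply in the members' differences was not tested. With the macrophage mean as a covariate, the chaperone mean differed by 0.05 and the ATF4 and amino acid mean by 0.13, and the signs of 9 members turned. Among the 7 members at an unadjusted p under 0.05, the differences became 0.81 for Sesn2, 0.62 for Ppp1r15a, 0.59 for Hyou1, 0.47 for Trib3, 0.30 for Sel1l, 0.27 for Cebpb and -0.29 for Atf3. Of these, Sesn2 alone stayed at an unadjusted p under 0.05 in that fit. The SEs of all 7 were larger there. Hyou1 and Sel1l left the threshold with nearly unchanged differences, as their SEs went from 0.20 to 0.29 and from 0.10 to 0.15. The macrophage mean was itself lower on average in the null group, so that fit cannot tell its part from that of genotype. Ddit3 had 0.11 there. In bulk RNA, fewer cells of a type and less RNA per cell cannot be told apart.

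**Figure D5:**
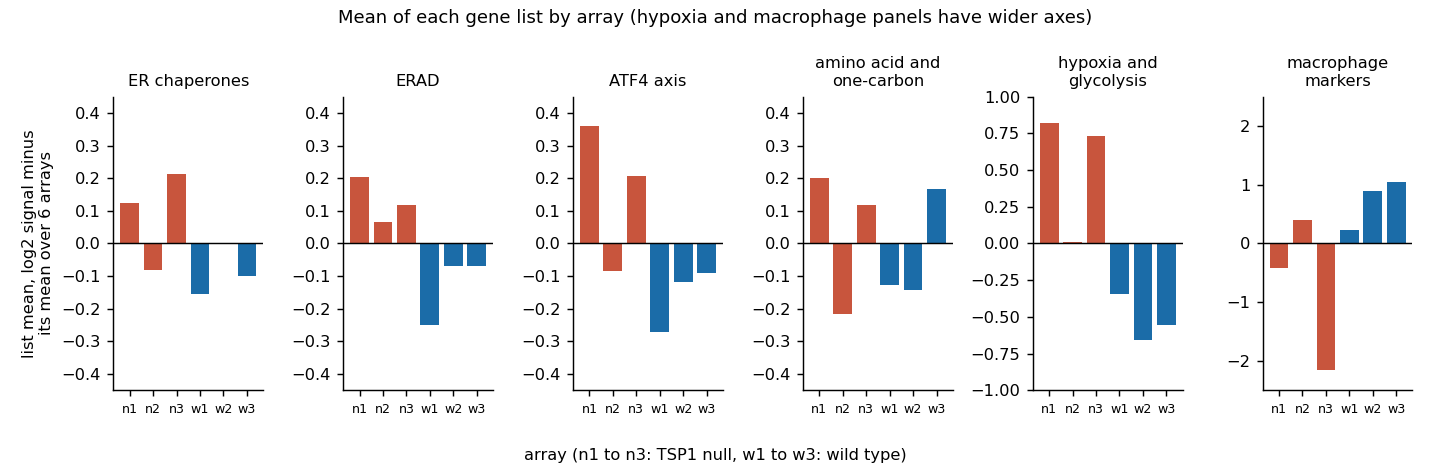
Mean log2 signal of each list on each array minus its mean over the 6 arrays (n1 to n3 TSP1 null, w1 to w3 wild type); the hypoxia and macrophage panels have wider axes of their own. The second null array is low for the chaperone, ATF4 axis and amino acid lists (-0.08, -0.08 and -0.22) and for the hypoxia list within its group, and is the null array with the most macrophage signal.

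Further genes of these pathways were also mostly higher in mean signal, and none passed the adjusted threshold. Among 24 other ER folding, redox and translocation genes 6 stood at an unadjusted p under 0.05, all higher in the null group, and the median difference was 0.17. Over all genes 10.6% stood at that threshold and 6.28% were higher, and counts such as 2 of 13 or 2 of 17 in the lists that follow are near those shares. Ero1a, the oxidase that recharges disulfide isomerases and is also induced by low oxygen, had 0.87 (SE 0.16, adjusted p = 0.216). Spcs2, of the signal peptidase, had 0.47 (SE 0.14), and Txndc5, a disulfide isomerase, 0.36 (SE 0.12). Of 13 other degradation genes 2 did so, the glycan lectin Os9 (0.37, SE 0.13) and Faf2 (0.28, SE 0.11), with a median of 0.06. Of 10 other sensors, proteases and ER-bound factors 3 did, with a median of 0.27. They were Creb3 (0.36, SE 0.10) and Creb3l2 (0.46, SE 0.14), membrane-bound factors released by cleavage, and Mbtps1 (0.38, SE 0.11), the site-1 protease that cuts ATF6.

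Around ATF4, the listed non-members with the largest differences were Ddit4 and Vldlr. Of 14 other eIF2 kinases, phosphatases and ATF4 partners 4 stood at an unadjusted p under 0.05, all higher, with a median of 0.23. Ddit4, which encodes REDD1, an inhibitor of mTORC1 that low oxygen also induces, measured 8.62, 7.83 and 8.16 on the null arrays and 7.06, 6.91 and 6.81 on the wild-type arrays. Every null array exceeded every wild-type array by a wide margin, and the difference was 1.28 (SE 0.20, 2.42-fold, adjusted p = 0.194). Vldlr, a lipoprotein receptor, had 0.88 (SE 0.19) and Jdp2, a leucine zipper repressor, 0.35 (SE 0.11). Of 17 other amino acid, transport and folate genes 2 did so, with a median of 0.13. They were Slc1a4, a neutral amino acid transporter (0.39, SE 0.12), and Mthfd1l, a mitochondrial folate enzyme (0.72, SE 0.30).

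Aminoacyl-tRNA synthetases, many of them ATF4 targets, had 16 of 17 positive differences with a median of 0.15 (55.1% of all genes were positive). Of them 0 stood at an unadjusted p under 0.05, against 10.6% of all genes. The first wild-type array was the lowest of its group for 15 of the 17, against 39.7% of all genes. The second null array was the lowest of its group for 15 also, against 36.8%. The smallest p there was that of Hars (0.27, SE 0.12). Cytosolic heat shock genes had 0 of 10 at that threshold and a median of 0.00, with the smallest p for Hspb8 (0.39, SE 0.19). Of 10 mitochondrial chaperones and proteases 2 stood there, with a median of 0.11. They were Lonp1, a matrix protease (0.73, SE 0.17, adjusted p = 0.298), and Dnaja3 (0.32, SE 0.13).

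Across the series the array medians ran from 5.25 to 5.32. Precision here is limited by the number of arrays. Thbs1, the gene of TSP1, had a difference of -0.68 (SE 0.13) and kept a bright signal on the null arrays. The sources used here do not place its probes relative to the disrupted part, which makes it a weak check of the labels. Acta2, the smooth muscle actin of myoepithelial cells, read 13.85 to 14.01 on the 6 arrays. Of the same marker list, Cnn1 and Tagln were bright as well, at 11.64 to 12.22 and 12.16 to 12.58. Myh11 read 8.35 to 9.58, and Oxtr was dim, at 5.48 to 6.02. Basal epithelial Krt14, Krt17 and Trp63 were dim, at 4.93 to 6.35, 4.71 to 6.10 and 4.47 to 4.93, near the array medians. They moved with the groups, with differences of 0.89 (SE 0.20), 0.82 (SE 0.23) and 0.27 (SE 0.12) and no overlap. The mean of 8 fibroblast markers was 10.71, 11.43 and 10.84 on the null arrays and 11.69, 10.53 and 10.70 on the wild-type arrays. The differences of the 8 went both ways. Col1a1, Col1a2 and Col3a1 were higher in the null group without overlap, at 0.54 (SE 0.15), 0.51 (SE 0.11) and 1.03 (SE 0.27), and Pdgfra had 0.24. Thy1, Dpt, Dcn and Lum had -0.15, -0.40, -0.55 and -1.05, all with overlap. All 16 macrophage markers had negative differences, and their mean ran from 7.77 to 10.97 over the arrays. Fibroblast and macrophage markers were thus bright in these cultures along with Acta2. Levels of different probe sets do not give shares of cells. That the cells are myoepithelial was taken from the series and was not tested. The part of these cell markers in the members' differences was not tested beyond the macrophage covariate. Acinar, plasma cell and endothelial lists, whose cells could also add ER signal, had array means between 4.76 and 5.15, between 4.83 and 5.05 and between 4.71 and 6.17.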

How the data were processed

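Per the submitters' processing notes the data passed through Partek and RMA, and the authors deposited the normalized values, 41345 probe sets on each of 6 arrays, as log2 signals. The log2 unit was inferred from the range of values, and the sources used here name no versions, settings or genome build. RMA in general corrects background, quantile-normalizes and summarizes probes, and it compresses differences of dim probe sets. Correlations between arrays ran from 0.978 to 0.988, so none repeated another.

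Gene symbols came from the array platform's table, and for each gene the brightest probe set with 1 symbol was kept, with no intensity filter. Groups and replicate numbers came from the sample titles, which write the null group as TSP1-1. The groups were compared with limma 3.58.1 (lmFit, eBayes, two-sided) in R 4.3.3, as TSP1 null minus wild type, over all 22180 genes with Benjamini-Hochberg adjustment. Errors of genes are limma's SE, and those of list means the SE between group means. The fit was tested on simulated data. Motifs were searched with Python 3.11.15 and figures drawn with matplotlib 3.10.9.

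All measured members are named. Of other pathway lists, up to 3 genes of smallest p under 0.05 are named, or the smallest where none was. The members, lists and alternatives were chosen with earlier results of these data known, and Ddit4's values by array and the single cell markers were added after their values were seen. Other settings covered normalization, centring, dim genes, the choice of probe set, limma's prior, array weights, the replicate number, a macrophage covariate and each array left out.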

Additional observations from a re-analysis of the deposited data

How the results depend on the processing

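No member passed an adjusted p of 0.05 under any of the 15 other settings listed for this comparison. In a fit chosen after seeing the data, without null array 2 and wild-type array 1, 2 members passed (Trib3 and Sesn2, differences 0.96 and 0.86), 11 stood at an unadjusted p under 0.05 and 25 did not overlap, against 1.65%, 15.8% and 46.7% of all genes. At an unadjusted p under 0.05 the 7 members became 1 with the macrophage mean as a covariate (5.94% of all genes) and 2 to 12 when an array was left out (6.7% to 12.3%). With 2 arrays left in a group, 9 to 20 members did not overlap, against 23% to 30.5% of all genes. Without null array 1 it was 9 of 36, near the share of 23% in that fit. Without null array 2 it was 20, against 30.5%. With all 6 arrays it was 9, against 15.8%. Leaving out an array gave chaperone means of 0.11 to 0.25, ATF4 and amino acid means of 0.12 to 0.33 and a gap between them of -0.11 to 0.03. Median centring gave 10 higher and 0 lower members at an unadjusted p under 0.05, against 8.26% and 3.19% of all genes in that fit.

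Of 540 pairs of a member and such a setting, 511 kept direction and side of the threshold and 29 changed sign, in 13 members. Median centring gave 0.024 for Pdia3 and 0.013 for Slc3a2, and array weights gave 0.062 for Pdia3. With the macrophage covariate Hsp90b1 had -0.026, Pdia6 -0.044, Canx -0.041, Dnajb9 -0.14, Dnajb11 -0.084, Dnajc3 -0.088, Ern1 0.24, Chac1 -0.032 and Psat1 -0.37. The cause was not tested. With 1 array left out, or both arrays named above, the ranges were -0.10 to 0.091 for Pdia3, -0.15 to 0.31 for Psat1, -0.11 to 0.087 for Slc3a2, -0.028 to 0.12 for Dnajb11, -0.052 to 0.10 for Dnajc3, -0.30 to 0.062 for Ern1, -0.040 to 0.21 for Creld2, -0.029 to 0.13 for Atf6, -0.0025 to 0.10 for Hsp90b1 and -0.023 to 0.28 for Dnajb9. Without both of those arrays Pdia3 had 0.091, Atf6 -0.029 and Slc3a2 0.010.

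The replicate block was a fit with the replicate number as a term. It gave 6 members at an unadjusted p under 0.05, against 9.99% of all genes, and 0 past the adjusted threshold. Deviations of same-numbered arrays correlated at -0.14, 0.18 and -0.16 over genes, and those of other pairs at up to 0.26. With 3 arrays per group these values cannot decide whether the numbers pair the samples.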
